A study of Mus musculus with 11 samples.

Results

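The genes described here are *Ucn3*, *Ppp1r1a*, *Msln*, *Maob* and *Fkbp1b*, 5 of the 34728 genes in the deposited table, all of them transcribed in mature pancreatic β-cells. They were picked by name because their RNA was lower, or its fall was disputed, in β-cells without Raptor, so their differences from WT are descriptions of the choice and carry no test. RNA of sorted β-cells was sequenced in 11 libraries from male mice of 8 weeks (strain C57BL/6 x 129SV), namely 3 WT, 4 diabetic βRapKOGFP and 4 euglycemic βRapKOGFP. The WT littermates were *Raptor*+/+, RIP-Cre, *Rosa26*GFP, and both mutant groups were *Raptor*-/-, RIP-Cre, *Rosa26*GFP, so every mouse, controls included, expressed Cre from the rat insulin promoter and a GFP lineage label at *Rosa26*. Diabetic mice received no insulin, while euglycemic mice had carried an insulin pellet for 4 weeks. Raptor is lost in these mice from the time the insulin promoter becomes active, and GFP stays on in a labelled cell whatever it later expresses. The sources used here do not say whether a library came from 1 mouse or a pool.

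Raptor is the scaffold protein of mTOR complex 1, the nutrient-sensing kinase complex that rapamycin inhibits. β-cells acquire glucose-responsive insulin secretion after birth, and mature cells switch on genes that newborn cells lack. *Ucn3* encodes urocortin 3, a peptide hormone stored with insulin that acts on the receptor CRHR2 of neighbouring δ-cells, and it is a widely used marker of β-cell maturity. *Ppp1r1a* encodes protein phosphatase inhibitor 1, which blocks protein phosphatase 1 once protein kinase A has phosphorylated it. *Fkbp1b* encodes FKBP12.6, a prolyl isomerase of the family that binds FK506 and rapamycin, known as a partner of ryanodine receptor calcium channels. *Maob* encodes monoamine oxidase B of the outer mitochondrial membrane. *Msln* encodes mesothelin, a surface glycoprotein best known from mesothelium and from tumours.

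The members lie on separate chromosomes of GRCm38 (mm10), all transcribed from the minus strand and all protein-coding. *Ucn3* (ENSMUSG00000044988) is at chr13:3940688-3945349, *Ppp1r1a* (ENSMUSG00000022490) at chr15:103530279-103538003, *Msln* (ENSMUSG00000063011) at chr17:25748613-25754378, *Maob* (ENSMUSG00000040147) at chrX:16709282-16817366 and *Fkbp1b* (ENSMUSG00000020635) at chr12:4833174-4841591. None of their exon bases overlap exons of another gene. In *Ucn3*, *Ppp1r1a*, *Maob* and *Fkbp1b* no stretch of 50 transcript bases occurs in the transcripts of another gene, and in *Msln* 2.88% of such stretches do. The nearest relative of *Fkbp1b* is *Fkbp1a*, whose product FKBP12 mediates the effect of rapamycin on mTOR. Because RNA of these paralogs could be confused in counting, the first 150 bases of both coding sequences are shown, 5′ to 3′, with capitals at the 31 bases where they differ:

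Fkbp1b: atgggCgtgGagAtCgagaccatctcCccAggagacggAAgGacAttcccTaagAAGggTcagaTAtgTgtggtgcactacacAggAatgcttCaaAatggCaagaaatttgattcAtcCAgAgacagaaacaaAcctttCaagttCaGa

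Fkbp1a: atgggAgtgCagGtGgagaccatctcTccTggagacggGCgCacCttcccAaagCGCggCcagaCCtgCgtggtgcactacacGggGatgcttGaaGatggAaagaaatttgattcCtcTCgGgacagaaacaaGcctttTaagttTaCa

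Over all 324 bases the coding sequences differed at 82, an identity of 74.7%, and the longest run they shared was 14 bases.

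Promoter sequence was on hand for *Ucn3* and *Fkbp1b*, as 250 bases before the RefSeq start site (GRCm38.p6), at chr13:3945350-3945599 and chr12:4841574-4841823, minus strand. They are shown because the 2 genes are both lower in diabetic libraries on average, and they were searched on both strands for letters that factors of β-cells or of stress responses are known to prefer. These were CAGATG for NeuroD1, TGCTGA for MAF proteins, TAATTA for homeodomain factors such as Pdx1, GTAAACA for forkhead factors and TTGCNNAA for C/EBP proteins. The others were TGATGNAA for ATF4 and, for CREB, TGACGTCA as the full element and TGACG as its core, which the full element contains. The capitals mark the only matches found, CAGATG in *Ucn3* and, on the other strand, TGACG in *Fkbp1b*:

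Ucn3: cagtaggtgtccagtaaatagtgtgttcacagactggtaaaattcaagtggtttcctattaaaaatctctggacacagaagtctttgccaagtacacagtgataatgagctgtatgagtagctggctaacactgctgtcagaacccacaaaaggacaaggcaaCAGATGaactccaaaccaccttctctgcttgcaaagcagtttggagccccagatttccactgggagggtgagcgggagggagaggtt

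Fkbp1b: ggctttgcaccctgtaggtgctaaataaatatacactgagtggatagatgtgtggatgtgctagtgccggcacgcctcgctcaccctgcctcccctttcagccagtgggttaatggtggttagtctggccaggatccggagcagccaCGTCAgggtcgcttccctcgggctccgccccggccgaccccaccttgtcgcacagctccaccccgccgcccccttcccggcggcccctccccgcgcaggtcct

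CAGATG, an E-box of the type bound by NeuroD1, was in 14.4% of 32851 promoter windows of this length, and TGACG, the core of the cAMP response element, was in 17.8%. The window of *Fkbp1b* takes in the first bases of the GENCODE transcript, which starts upstream of the RefSeq one. The 2 promoters shared none of the motifs searched.

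The unit throughout is FPKM, fragments per kilobase of transcript, scaled to the fragments mapped in the library. The depth inferred from the steps between low values was 9506156 to 16659222 fragments per library, at which 1 fragment on a transcript of 1 kb is worth 0.0600 to 0.105 FPKM. The 5 members were measured well above that step: the thinnest value, *Msln* in euglycemic replicate 4, stood for about 53 fragments and the highest, *Ucn3* in euglycemic replicate 1, for about 19833. *Rptor*, which encodes Raptor, had 0.948, 1.36 and 1.79 FPKM in WT, 0.938, 0.831, 0.507 and 0.485 in diabetic and 0.423, 0.482, 0.623 and 0.438 in euglycemic libraries, so that all 8 mutant libraries were below the 3 WT libraries, narrowly in diabetic replicate 1. Insulin and islet amyloid RNA (*Ins1*, *Ins2*, *Iapp*) was 29.0 to 51.2% of all FPKM. The sum of 8 markers of acinar cells, the enzyme-secreting cells of the exocrine pancreas, was 3.53 to 33.5 FPKM in WT, but 767 to 3631 FPKM in 5 mutant libraries (diabetic replicates 1, 2 and 3 and euglycemic replicates 1 and 4) and 14.2 to 15.6 FPKM in the other 3. All 8 markers were above 0 somewhere in each group. Summed δ-cell markers were 1176 to 2515 FPKM in WT and 4864 to 13950 FPKM in mutants, those of α-cells 1047 to 2438 and 3935 to 23770 FPKM, and those of PP cells 512 to 1107 and 3674 to 14240 FPKM, with no marker of these 3 lists at 0 throughout a group. Duct markers summed to 4.02 to 6.79 FPKM in WT and 17.5 to 43.5 FPKM in mutants. Endothelial markers summed to 9.91 to 50.6 FPKM in diabetic libraries and to at most 2.59 FPKM in WT and euglycemic ones, with 3 of 7 at 0 throughout WT. Stromal markers summed to 0.563 to 15.8 FPKM in diabetic libraries and to at most 0.496 FPKM in the others, and leukocyte markers to 61.8 FPKM in diabetic replicate 1 and to at most 20.4 FPKM elsewhere. The leukocyte sum was mostly *Lyz2* in diabetic replicate 1, at 59.45 FPKM. In WT it was mostly *Cd79a*, at 8.20 to 20.1 FPKM, with 4 of 6 markers at 0 throughout WT. *Cd79a* went the other way, at 0.199 to 0.561 FPKM in diabetic and at most 1.10 FPKM in euglycemic libraries. Whether these other RNAs had a part in the results was not tested, except where values are given with them.

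The FPKM of *Fkbp1b* was 266, 201 and 203 in WT, 34.5, 51.1, 63.7 and 94.5 in diabetic, and 110, 74.9, 109 and 68.3 in euglycemic libraries. Every mutant library was below every WT library, and the lowest WT value was more than 1.5 times the highest mutant value, while the mutant groups overlapped. The WT libraries averaged 224 ± 37.1 FPKM (SD, n = 3), the diabetic libraries 60.9 ± 25.4 (SD, n = 4) and the euglycemic libraries 90.5 ± 22.0 (SD, n = 4), the latter being 27.3% and 40.5% of the WT mean. On the log2(FPKM + 1) scale the difference from WT was -1.94 (SE 0.30) in diabetic and -1.31 (SE 0.30) in euglycemic libraries.

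*Ppp1r1a* had the same order of groups. It had 705, 484 and 432 FPKM in WT, 130, 207, 211 and 232 in diabetic, and 384, 276, 337 and 235 in euglycemic libraries. The 3 groups formed a staircase in which no 2 groups overlapped, although diabetic replicate 4 and euglycemic replicate 4 were almost level. Means were 540 ± 145 (SD, n = 3), 195 ± 45.0 (SD, n = 4) and 308 ± 65.9 (SD, n = 4) FPKM in that order, so that diabetic libraries held 36.1% and euglycemic libraries 57.0% of the WT mean. The log2 difference from WT was -1.47 (SE 0.26) in diabetic and -0.80 (SE 0.26) in euglycemic libraries.

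*Maob* RNA was 131, 105 and 95.3 FPKM in WT, 43.5, 31.7, 44.3 and 53.8 in diabetic, and 83.6, 49.6, 62.6 and 40.9 in euglycemic libraries. The mutant groups again overlapped each other and neither overlapped WT, but euglycemic replicate 1 came close to the lowest WT library. WT libraries averaged 111 ± 18.6 FPKM (SD, n = 3), diabetic libraries 43.4 ± 9.06 (SD, n = 4) and euglycemic libraries 59.2 ± 18.6 (SD, n = 4). The log2 difference from WT was -1.34 (SE 0.26) in diabetic and -0.93 (SE 0.26) in euglycemic libraries.

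*Msln* had the lowest level of the 5 genes and the largest proportional loss. It had 128, 38.9 and 49.8 FPKM in WT, 17.5, 3.24, 11.7 and 11.2 in diabetic, and 22.0, 5.70, 5.38 and 2.59 in euglycemic libraries. No mutant library reached the lowest WT library, and unlike the other 4 genes *Msln* had a lower mean in euglycemic than in diabetic libraries. Means were 72.1 ± 48.4 (SD, n = 3), 10.9 ± 5.87 (SD, n = 4) and 8.93 ± 8.85 (SD, n = 4) FPKM. The log2 difference from WT was -2.60 (SE 0.61) in diabetic and -3.05 (SE 0.61) in euglycemic libraries. WT replicate 1 held much of the WT mean, and without it the differences were -2.10 and -2.55.

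*Ucn3* was the most abundant of the 5 and the only member whose mutant libraries overlapped WT. Its FPKM was 911, 479 and 537 in WT, 254, 189, 495 and 514 in diabetic, and 805, 598, 474 and 319 in euglycemic libraries. Diabetic replicates 3 and 4 were above the lowest WT library, as were euglycemic replicates 1 and 2, so the order of the groups was carried by their means only. WT libraries averaged 643 ± 235 FPKM (SD, n = 3), euglycemic libraries 549 ± 206 (SD, n = 4) and diabetic libraries 363 ± 166 (SD, n = 4), and neighbours in that order differed by less than the larger of their SDs. The log2 difference from WT was -0.89 (SE 0.40) in diabetic and -0.25 (SE 0.40) in euglycemic libraries. The second of these depended on WT replicate 1, since without it the difference was 0.034.

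**Figure D1:**
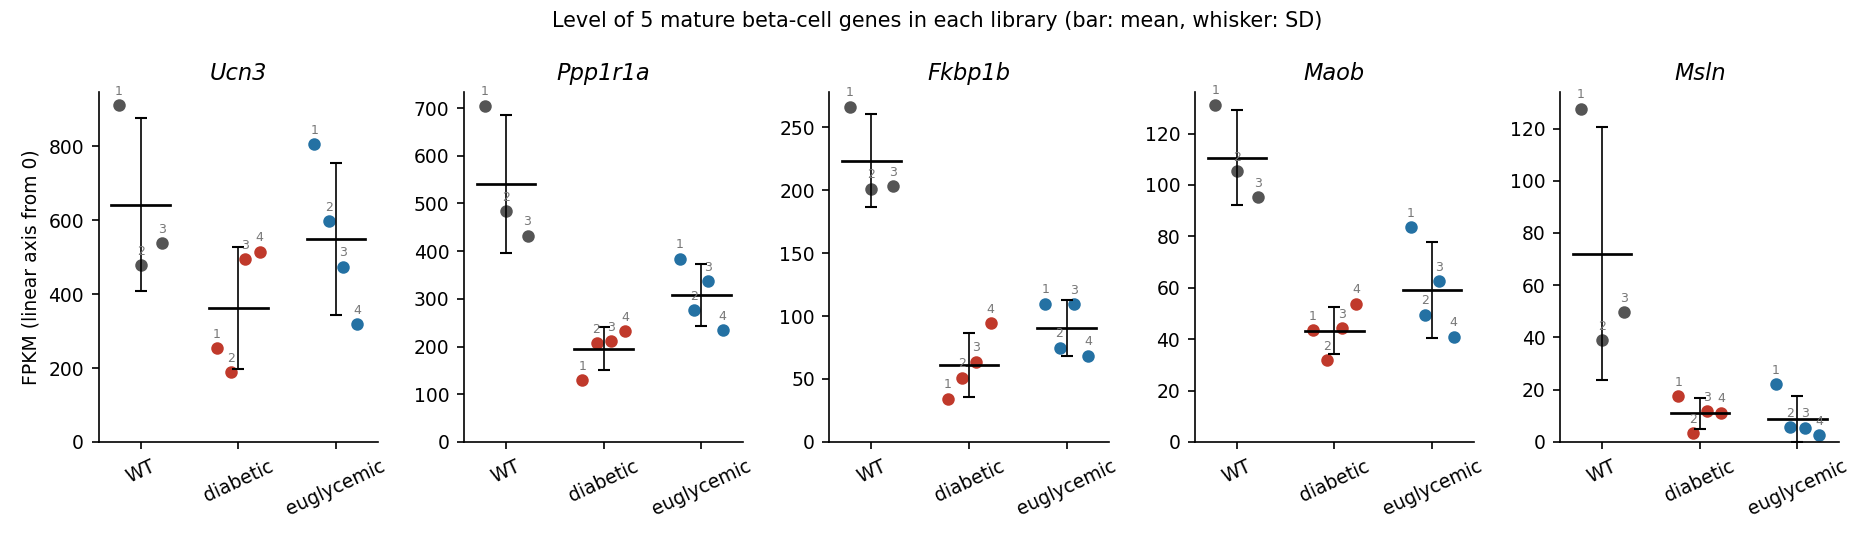
FPKM (linear axis from 0) of *Ucn3*, *Ppp1r1a*, *Fkbp1b*, *Maob* and *Msln* in each of 3 WT, 4 diabetic and 4 euglycemic libraries; small numbers are replicate numbers, bars are means and whiskers are SD. Mutant points lie below all WT points in every panel except *Ucn3*, where the 3 groups overlap.

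With all members on the same scale, *Ucn3* ranked 41 of 11251 tested genes by mean FPKM in WT, *Ppp1r1a* 54, *Fkbp1b* 120, *Maob* 289 and *Msln* 499. In diabetic libraries the ranks were 66, 128, 560, 851 and 3259, and in euglycemic libraries 57, 94, 441, 721 and 3865. *Ucn3* and *Ppp1r1a* thus stayed among the most abundant RNAs of these cells, whereas *Msln* moved furthest down the order.

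A gene was called where limma gave a Benjamini-Hochberg adjusted p up to 0.05 and the change was at least 1.5-fold. Between diabetic and WT libraries 3 of the 5 members (*Fkbp1b*, *Ppp1r1a*, *Maob*) met it as lower, where 0.498% of all 11251 genes did, and between euglycemic and WT libraries 1 (*Msln*) met it, against 0.196% of all genes. Of 21 alternative settings, the diabetic call stood in 17 for *Fkbp1b*, 12 for *Ppp1r1a* and 11 for *Maob*, and the euglycemic call of *Msln* in 6. In both comparisons 4 of the 5 members had every mutant library below every WT library, a pattern that 6.88% of all genes showed for diabetic and 5.02% for euglycemic libraries. Since the same contrasts were used to choose the members, these counts only describe the choice. Both comparisons also share the 3 WT libraries, of which replicate 1 was the highest for all 5 members.

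**Figure D2:**
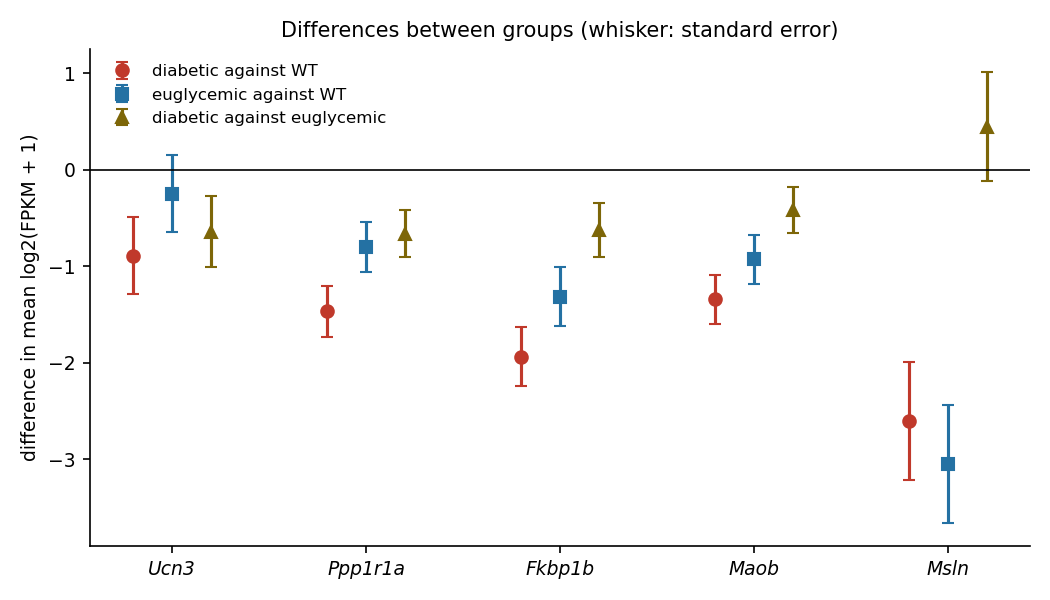
Difference in mean log2(FPKM + 1) between groups for the 5 genes in 3 comparisons; whiskers are standard errors of the limma fit. Against WT all points lie below 0, from -0.25 to -3.05, and between diabetic and euglycemic libraries only *Msln* lies above 0.

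The mutant groups were also compared with each other, which asks whether the level of these genes differs between hyperglycemic and insulin-treated mice that both lack Raptor. The members were chosen for their difference from WT and not for this one, but the same diabetic and euglycemic values entered the choice, so this comparison too is given as a description, without p-values for single members. The counts of members and the 95% intervals below describe the fit to these values and are not read as tests. The calling criteria were met by 0 of 5 members (0.00889% of all genes were called, that is 1 gene, the endothelial *Esm1*), and 2 of 5 had an unadjusted p below 0.05, as did 20.6% of all genes. *Esm1* reached 1 FPKM only in diabetic libraries, so it passed the minimum only through the group where it is high. *Ppp1r1a* was lower in diabetic than in euglycemic libraries by a log2 difference of -0.66 (SE 0.24, 95% interval -1.19 to -0.14). All 4 diabetic libraries were below all 4 euglycemic libraries, as in 7.42% of all genes. This order was lost after rescaling to TPM, where the groups overlapped. *Fkbp1b* differed by -0.62 (SE 0.28, 95% interval -1.23 to -0.02), but with the 5 libraries rich in acinar RNA left out, and 1 diabetic and 2 euglycemic libraries remaining, the difference was 0.063, and that of *Ppp1r1a* was -0.39. Without diabetic replicate 1 the difference of *Fkbp1b* was -0.39.

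*Ucn3* differed between the mutant groups by -0.64 (SE 0.37, 95% interval -1.44 to 0.16). It was -0.37 without diabetic replicate 2, and -0.050 without the acinar-rich libraries. *Maob* differed by -0.41 (SE 0.24, 95% interval -0.93 to 0.10). It was -0.28 without diabetic replicate 2, -0.23 without euglycemic replicate 1, and -0.049 without the acinar-rich libraries. *Msln* differed by 0.45 (SE 0.57, 95% interval -0.78 to 1.67). Single libraries moved this value widely, to 0.080 without euglycemic replicate 4, 0.18 without diabetic replicate 1, 0.89 without diabetic replicate 2 and 0.97 without euglycemic replicate 1, and it was 0.90 without the acinar-rich libraries. Each of these 3 intervals includes both 0 and a change of more than 1.5-fold, and nothing further is read from them.

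Some libraries were high or low for all or most of the 5 genes. WT replicate 1 and euglycemic replicate 1 were the highest of their group for 5 of 5 members, diabetic replicate 4 for 4, and euglycemic replicate 4 was the lowest of its group for all 5. Diabetic replicate 1 did not follow this, being the highest of its group for *Msln* and the lowest for *Ppp1r1a* and *Fkbp1b*. Insulin and islet amyloid RNA ran the other way at these extremes: it was 36.7% of all FPKM in WT replicate 1, 35.9% in diabetic replicate 4 and 29.0% in euglycemic replicate 1, the lowest share of each group, and 47.3% in euglycemic replicate 4, the highest of its group. The sum of 8 immediate early genes was 1192 FPKM in WT replicate 1, the lowest of its group (the others 2793 and 3333), but 5031 FPKM in euglycemic replicate 1, the highest of its group (the others 940 to 1947). FPKM values are shares of a library, so these sums are given beside the levels, and their part in them was not tested. After division by *Ins1* + *Ins2* + *Iapp*, 4 of 5 members had every diabetic library below every WT library, as did 1.76% of all genes on this scale, and 2, *Msln* and *Fkbp1b*, had all euglycemic libraries below WT (1.1% of all genes). *Ppp1r1a* in euglycemic replicate 1 was then 105% and *Maob* 112% of the WT mean.

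Across the 11 libraries, *Ppp1r1a* and *Fkbp1b* followed each other most closely of all pairs of members (Pearson r of log2(FPKM + 1) = 0.964, and 0.874 after the group means were taken off), and *Ucn3* and *Msln* least (r = 0.615, and 0.761 after the group means were taken off). With group means taken off the lowest pair was *Msln* and *Fkbp1b*, at 0.309. These coefficients describe 11 points that share their library, its depth and its makeup. Ranked over all 11250 other tested genes, *Fkbp1b* was the second most similar gene to *Ppp1r1a*, after *Dhrs4*, a dehydrogenase/reductase (r = 0.967), and before *Rogdi* (r = 0.951). *Dhrs4* was also among the 3 genes most similar to *Maob* (r = 0.965), with *Fam151a* (r = 0.974) and *Gpr142* (r = 0.964), the last a receptor for aromatic amino acids on β-cells. The nearest genes to *Fkbp1b* were *T2* (r = 0.979), *Tmem80* (r = 0.972) and *Slc30a8* (r = 0.972), which encodes the zinc transporter of insulin granules. *Ucn3* was most like *Ddc*, the aromatic amino acid decarboxylase (r = 0.981), *Tm2d2* (r = 0.978) and *Pebp1* (r = 0.973), and *Msln* was most like *Cbs*, cystathionine β-synthase (r = 0.957), *Pid1* (r = 0.936) and *Gm281* (r = 0.923). With group means taken off, 3 of these 15 genes were still among the 3 nearest to their member, *Ddc* and *Tm2d2* for *Ucn3* and *T2* for *Fkbp1b*.

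The levels of the members were also set against acinar RNA, library by library. In the 3 mutant libraries with little of it, *Fkbp1b* was 74.9 to 109 FPKM, *Ppp1r1a* 232 to 337 FPKM, *Maob* 49.6 to 62.6 FPKM and *Msln* 5.38 to 11.2 FPKM, all below the lowest WT library (201, 432, 95.3 and 38.9 FPKM). *Ucn3* was 474 to 598 FPKM in these libraries, around the lowest WT library (479 FPKM), with 1 of the 3 below it. The diabetic differences from WT were smaller without the acinar-rich libraries, at -1.22 for *Fkbp1b*, -1.18 for *Ppp1r1a*, -1.01 for *Maob*, -2.38 for *Msln* and -0.26 for *Ucn3*, each then resting on 1 diabetic library. The euglycemic differences were -1.28, -0.79, -0.96, -3.29 and -0.21 in that order. In such bulk samples fewer cells that express a gene and less RNA of it per cell cannot be told apart.

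**Figure D3:**
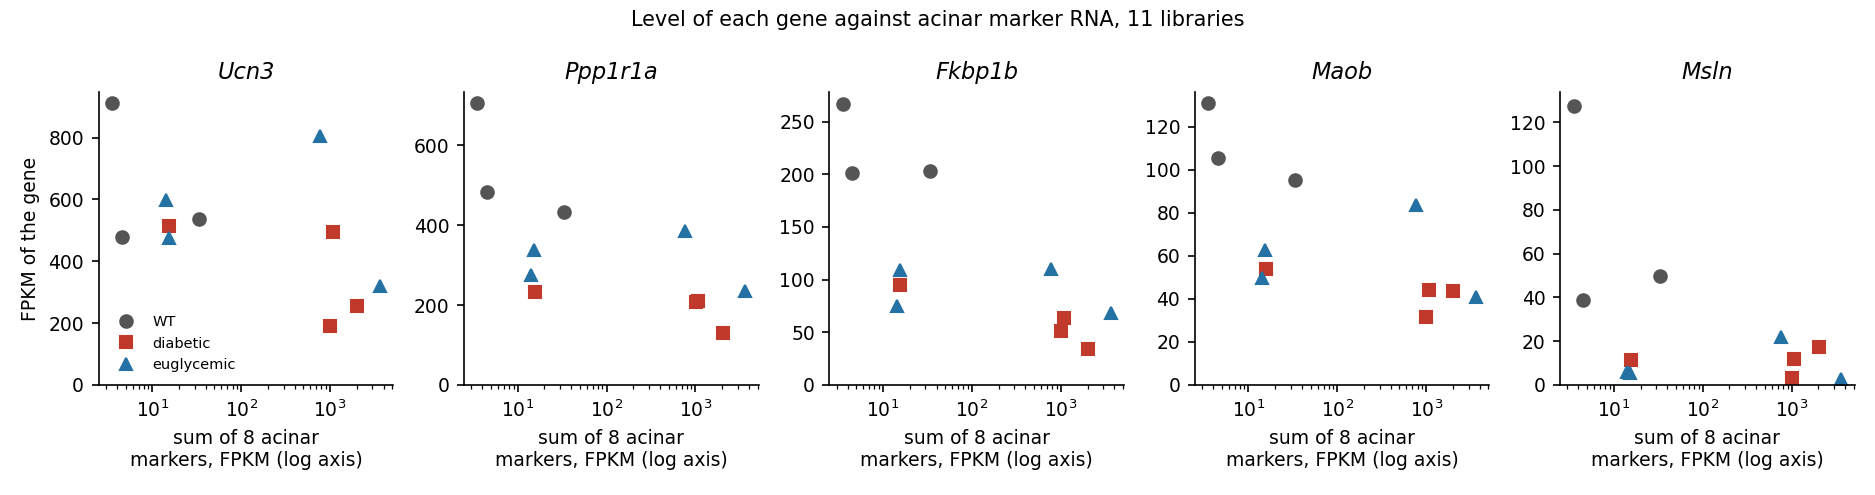
FPKM of each of the 5 genes (linear axis from 0) against the summed FPKM of 8 acinar markers (log axis) in 11 libraries, with circles for WT, squares for diabetic and triangles for euglycemic. For all genes but *Ucn3*, the 3 mutant libraries at 14.2 to 15.6 FPKM of acinar RNA lie below the WT libraries.

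Partners of the members were read from lists drawn up by function. The ligand-receptor side of *Ucn3* was sparse: *Ucn* and *Ucn2* were listed at 0 in every library and none of the 6 genes of this list reached the minimum for the test. *Crhr2*, the urocortin 3 receptor, had 0.109, 0.0344 and 0.0201 FPKM in WT, 0.190, 0.167, 0.484 and 1.54 in diabetic, and 0.467, 0.377, 0.227 and 0.373 in euglycemic libraries. It was thus higher in each mutant library than in any WT library, at 1 to 4 fragments in WT and 4 to 51 in mutants, without a test. *Sst*, the hormone of the δ-cells that carry this receptor, was also higher in each mutant library, at 1149 to 2469 FPKM in WT and 4774 to 13780 FPKM in mutants. Between the mutant groups the means went opposite ways. They were 0.594 FPKM in diabetic and 0.361 FPKM in euglycemic libraries for *Crhr2*, and 7416 and 11010 FPKM for *Sst*.

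For *Ppp1r1a*, the phosphatase it inhibits showed no such fall. *Ppp1ca*, the most abundant catalytic subunit of protein phosphatase 1 here, had 338, 212 and 233 FPKM in WT, 226, 209, 284 and 267 in diabetic and 352, 344, 324 and 300 in euglycemic libraries, and its log2 difference from WT was -0.06 (SE 0.21, 95% interval -0.51 to 0.39) in diabetic libraries. *Ppp1cb* and *Ppp1cc* had 4.74 to 19.1 and 0.215 to 2.09 FPKM over the 11 libraries. *Ppp1r1b* (DARPP-32), the close relative of *Ppp1r1a*, was at 0 in WT and at most 0.644 FPKM elsewhere. Of 23 genes of the phosphatase 1 and protein kinase A list, 17 were tested and limma called 0 in either comparison with WT, with 0 at an unadjusted p below 0.05 in diabetic libraries and 2 in euglycemic ones, where 11.9% and 13.9% of all genes were below it. The median log2 difference of the list was -0.01 in diabetic and -0.05 in euglycemic libraries, beside 0.01 and -0.01 for all genes tested.

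*Maob* was the main monoamine oxidase in these cells, with *Maoa* at 1.75 to 4.49 FPKM over all libraries. The log2 difference of *Maoa* from WT was -0.04 (95% interval -0.58 to 0.50) in diabetic and 0.22 (95% interval -0.32 to 0.77) in euglycemic libraries, with adjusted p values of 0.974 and 0.711 from limma. *Ddc*, which makes the amines that these enzymes degrade, had 74.2 to 96.9 FPKM in WT, 39.2 to 80.3 in diabetic and 55.8 to 95.7 in euglycemic libraries, and *Tph1*, which starts serotonin synthesis, was at most 0.0331 FPKM, while *Tph2*, the other enzyme of that step, had 0.317 to 0.498 FPKM in WT, 0.287 to 1.10 in diabetic and 0.438 to 0.720 in euglycemic libraries. Limma called 0 of the 7 tested genes of the 11 on the monoamine list in either comparison with WT, and at an unadjusted p below 0.05 there was 1, in diabetic libraries (all genes 11.9%). The list's median difference was -0.38 in diabetic and 0.09 in euglycemic libraries.

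*Fkbp1a* was less abundant than *Fkbp1b* in every library, at 15.2 to 24.9 FPKM in WT, 10.5 to 15.5 in diabetic and 11.8 to 19.8 in euglycemic libraries. Its log2 difference from WT was -0.50 (SE 0.24, adjusted p = 0.439 from limma) in diabetic and -0.12 (SE 0.24, adjusted p = 0.843) in euglycemic libraries. The ryanodine receptors *Ryr1*, *Ryr2* and *Ryr3*, the channels that FKBP12.6 is known to bind, had at most 0.143 FPKM in any library. Of the 20 genes of the immunophilin and calcium release list, 14 were tested and 1 was called, as higher in euglycemic libraries (0.356% of all genes). At an unadjusted p below 0.05 there were 3 in diabetic and 4 in euglycemic libraries, beside 11.9% and 13.9% of all genes. The gene called was *Fkbp11*, an FKBP of the endoplasmic reticulum, with 156, 92.9 and 111 FPKM in WT, 207, 188, 223 and 161 in diabetic and 357, 445, 217 and 287 in euglycemic libraries. All mutant libraries were above all WT libraries, narrowly in diabetic replicate 4. This pattern was shown by 6.67% of all genes for diabetic and 5.91% for euglycemic libraries. The log2 difference was 1.42 (SE 0.26, adjusted p = 0.0313 from limma) in euglycemic and 0.72 (SE 0.26, adjusted p = 0.284) in diabetic libraries. The euglycemic call stood in 10 of 21 alternatives and was lost without WT replicate 2 or 3, diabetic replicate 1 or 3, or euglycemic replicate 1 or 2 (adjusted p 0.0503 to 0.197). The list's median difference was -0.25 in diabetic and -0.15 in euglycemic libraries.

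*Msln* has a neighbour of related sequence, *Mslnl* (mesothelin-like, ENSMUSG00000041062), at chr17:25736042-25748330 on the plus strand. The genes point at each other, with 282 bases between their ends, and *Mslnl* exons share 3.5% of their bases with *Gm25083* on the other strand. *Mslnl* had 2.19, 2.31 and 1.66 FPKM in WT, which is about 79, 72 and 59 fragments. It had 0.141, 0, 0.138 and 0 FPKM in diabetic and 0.183, 0, 0 and 0 in euglycemic libraries, which is at most 8 fragments. The 5 mutant libraries at 0 and the 3 others all lay far below WT. *Mslnl* passed the minimum of the test only through the 3 WT libraries, so that it had to differ to be tested at all, and its values are given without a test. Of the markers of mesothelial cells, *Wt1* was at 0 in all 11 libraries and *Upk3b*, *Upk1b* and *Lrrn4* were at 0 in WT and at most 0.136 FPKM elsewhere. The other markers of the list, *Krt19* (also a duct marker) and *Gpm6a*, were at 0.505 to 0.853 and 0.349 to 0.984 FPKM in WT and at 2.54 to 16.5 and 0 to 5.43 FPKM in mutants.

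**Figure D4:**
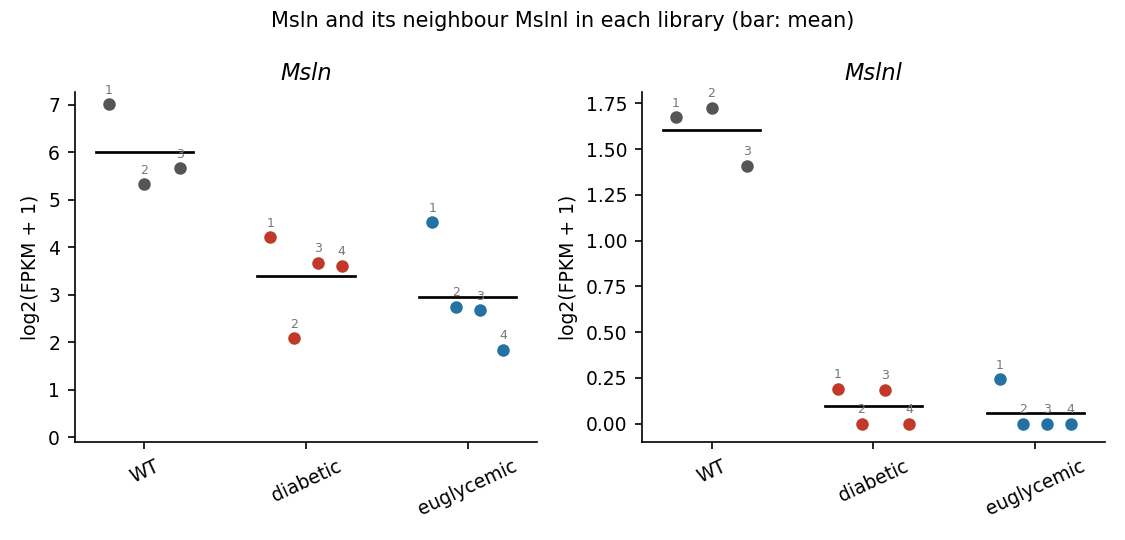
log2(FPKM + 1) of *Msln* and of its neighbour *Mslnl* in 3 WT, 4 diabetic and 4 euglycemic libraries; small numbers are replicate numbers and bars are means. *Mslnl* is at 1.66 to 2.31 FPKM in WT and at most 0.183 FPKM in mutants.

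Other genes of β-cell maturity and secretion were compared as a list of 24, all tested. Against a background of 0.498% and 0.196% of all genes called lower, 6 of the 24 were called lower in diabetic and 3 in euglycemic libraries, with none called higher, and with list medians of -0.37 and -0.33. The list was drawn up with earlier results of these libraries known. The counts, and the adjusted p-values and left-out fits of its genes given below, thus describe the choice. They are not independent evidence of its direction. *Slc2a2*, the glucose transporter GLUT2, had 69.7, 87.0 and 70.0 FPKM in WT, 16.3, 13.1, 21.4 and 19.4 in diabetic, and 29.6, 18.9, 24.5 and 14.0 in euglycemic libraries. Its log2 difference from WT was -2.06 (SE 0.25, adjusted p = 0.00254 from limma) in diabetic and -1.79 (SE 0.25, adjusted p = 0.00712) in euglycemic libraries. *Slc30a8* was at 642 to 712 FPKM in WT, 166 to 251 in diabetic and 231 to 339 in euglycemic libraries, with differences of -1.78 (SE 0.22, adjusted p = 0.0027 from limma) and -1.31 (SE 0.22, adjusted p = 0.0195). *Gipr*, the receptor of the incretin GIP, was called lower in both groups too, at -1.64 (SE 0.32, adjusted p = 0.0327 from limma) and -1.76 (SE 0.32, adjusted p = 0.0283).

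The other 3 genes called in diabetic libraries were the cation channel *Trpm5* (-1.84), and the vesicle proteins *Rab37* (-1.35) and *Sytl4* (-1.02). In euglycemic libraries they had -1.32, -1.24 and -0.99 with adjusted p values of 0.0677, 0.0898 and 0.0583 from limma, and a difference between the mutant groups was not called for any of them. Of the 6 diabetic calls, those of *Slc2a2* and *Slc30a8* stood when each of the 11 libraries was left out in turn. That of *Trpm5* was lost without WT replicate 1 or 2 (adjusted p = 0.0556 and 0.0525), and that of *Gipr* without WT replicate 2 or 3 or diabetic replicate 1, 2 or 3 (0.0756 to 0.15), while those of *Rab37* and *Sytl4* each stood in 3 of 11 such fits and were lost without any 1 of the WT libraries or of diabetic replicates 1, 2 and 3. In euglycemic libraries *Slc2a2* stood in all 11, *Slc30a8* was lost without WT replicate 2 or 3 or euglycemic replicate 2 (adjusted p 0.0741 to 0.106), and *Gipr* without WT replicate 2 or 3, diabetic replicate 3, or euglycemic replicate 2 or 3 (0.0503 to 0.197). Without the acinar-rich libraries 1 diabetic and 2 euglycemic libraries remained, the lone one being assumed to vary like the other groups, and only 1 and 4 of all genes were called, so calls are not compared. The diabetic differences were then -1.90 for *Slc2a2*, -1.38 for *Trpm5*, -1.43 for *Slc30a8*, -1.12 for *Gipr*, -0.69 for *Rab37* and -1.10 for *Sytl4*, and the euglycemic ones -1.76 for *Slc2a2*, -1.74 for *Gipr* and -1.28 for *Slc30a8*.

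**Figure D5:**
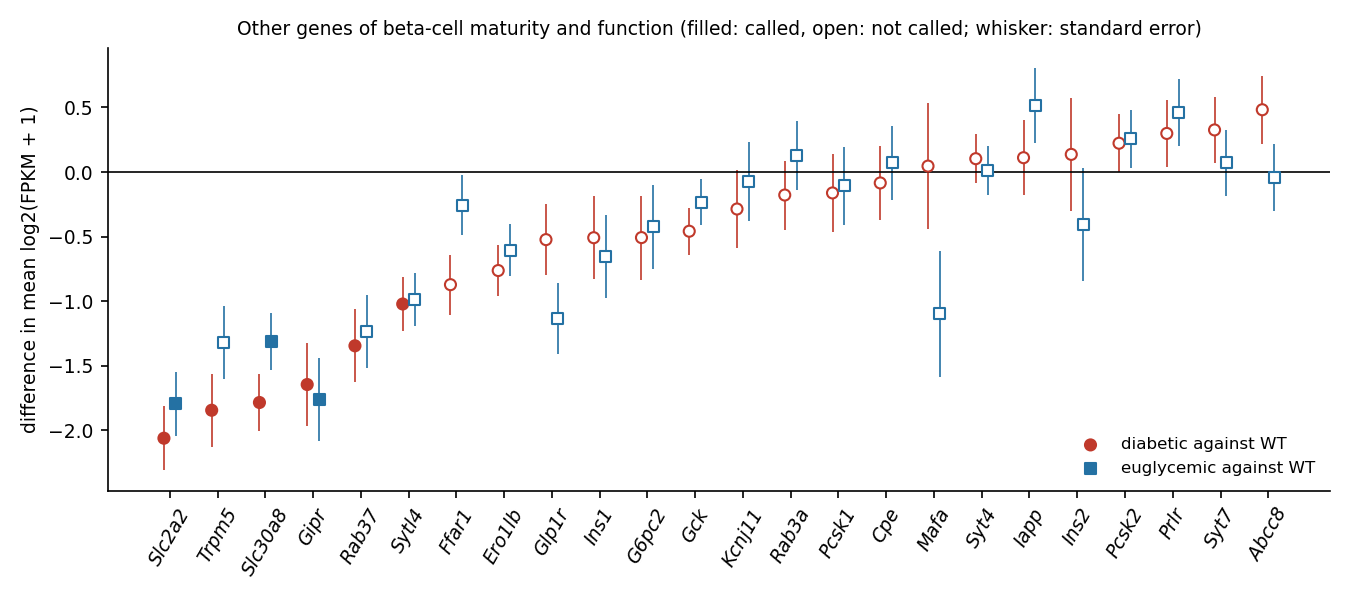
Difference in mean log2(FPKM + 1) from WT for 24 genes of β-cell maturity and function, circles for diabetic and squares for euglycemic libraries, filled where called, whiskers as standard errors. *Slc2a2*, *Slc30a8* and *Gipr* are filled in both comparisons, *Trpm5*, *Rab37* and *Sytl4* in the diabetic one.

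The 10 β-cell transcription factors on a further list were all tested and limma called 0 in either comparison with WT, with 2 lower at an unadjusted p below 0.05 in diabetic and 1 in euglycemic libraries (all genes, in either direction, 11.9% and 13.9%), and list medians of -0.28 and -0.35. On a list of 13 genes of immature or dedifferentiated β-cells, 9 were tested. *Aldh1a3*, an aldehyde dehydrogenase used as a marker of dedifferentiated β-cells, had 0.386 to 1.11 FPKM in WT, 14.4 to 45.0 in diabetic and 3.66 to 50.9 in euglycemic libraries. Only 1 WT library reached 1 FPKM, so that *Aldh1a3* passed the minimum through the mutant libraries, where it is high, and its values are given without a test. *Cd81*, a surface protein of immature β-cells, was called higher in both comparisons, where 0.471% and 0.356% of all genes were, at 45.0 to 68.9 FPKM in WT, 128 to 152 in diabetic and 137 to 203 in euglycemic libraries. The differences of *Cd81* were 1.18 (SE 0.21, adjusted p = 0.021 from limma) and 1.49 (SE 0.21, adjusted p = 0.00713), and the first was lost without any 1 of the WT libraries or diabetic replicate 1 or 3 (0.0611 to 0.0741).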

How the data were processed

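Poly-A RNA of GFP-sorted β-cells had been sequenced from both ends, and the authors deposited 1 FPKM value per gene and library (mm10). Their methods name Tophat, Cufflinks and Cuffdiff, whereas the submitters' processing notes list HISAT2 2.0.4, StringTie 1.3.0 and edgeR, so which tools made the FPKM values is not settled. FPKM was used as deposited. Of 34745 entries, 34267 matched a symbol, 478 did not, and 17 repeats were left out. Groups and replicate numbers follow the labels. The study describes its repetitions as biologically independent in general terms, and the labels do not tie libraries to animals, so p-values measure the spread between libraries.

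log2(FPKM + 1) of the 11251 genes with at least 1 FPKM in at least 3 of 11 libraries was fitted with limma 3.58.1 (R 4.3.3, eBayes with a trend, all libraries, no block), with Benjamini-Hochberg adjustment over all genes. The log scale understates changes of low genes. The fit was tested on simulated data. The limma and exact permutation tests designed for single members between the mutant groups are not given, because the values also entered their choice. Depth was inferred from single-exon genes of at least 500 bases, where 92.7 to 97.3% of low values were whole multiples of a step within 0.02. Annotation was GENCODE vM21. Promoters of *Ucn3* and *Fkbp1b* were matched in the RefSeq table (2 of 5 members). Alternatives were the pseudocount (0.1), no filter, TPM, the median of ratios, only 2 groups, no trend, library weights, the replicate block and leaving out each library. Division by hormone RNA and leaving out 5 acinar-rich libraries were chosen after seeing the data. Members, lists and partners were chosen with earlier results of these data known. Named genes are the members, their partners, the 3 genes most like each member, and list genes called in any contrast.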

Additional observations from a re-analysis of the deposited data

Results flagged for a closer look

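In euglycemic libraries, replicate 1 stood apart from the other 3 for *Msln*, at 22.0 FPKM beside 2.59 to 5.70 FPKM. It was picked out because the gap to the nearest library exceeded Dixon's 95% critical value in a group of 4. The criterion was applied to FPKM and not to log2(FPKM + 1). With normally distributed values, chance exceeds it in about 1 in 20 groups. The neighbouring *Mslnl* met the same criterion in that library, at 0.183 FPKM beside 0 in the other 3, but with 3 libraries tied at 0 any value above 0 would, so nothing is read from it. In all, 26 groups were examined over 13 genes.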

How the results depend on the processing

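Counts are given as diabetic against WT, euglycemic against WT, and diabetic against euglycemic. With no filter on low values 22, 13 and 0 genes were called, with library quality weights 551, 2287 and 1212, and with only the 2 groups compared in the fit 149, 17 and 6. With a pseudocount of 0.1, with TPM and with the median of ratios the last count was 0. After division by *Ins1*, *Ins2* and *Iapp* the counts were 22, 26 and 2, and without the 5 acinar-rich mutant libraries 1, 4 and 0, where fewer samples entered. Leaving out each library gave 26 to 210, 12 to 536 and 0 to 378 genes. Leaving out WT replicate 1 gave 36, 536 and 378, WT replicate 2 gave 26, 19 and 0, and WT replicate 3 gave 29, 12 and 1.

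Of the 5 members, 0, 0 and 0 were called with no filter, after division by hormone RNA and without the acinar-rich libraries, and with library weights 4 were called in euglycemic libraries and 1, *Ppp1r1a*, between the mutant groups (log2 difference -0.73). In euglycemic libraries 0 members were also called with the pseudocount of 0.1, with TPM and with only the 2 groups, where the call of *Msln* was lost. Leaving out each library gave 0 to 4 members in diabetic and 0 to 1 in euglycemic libraries against WT, and 0 in every fit between the mutant groups. The number of members whose libraries did not overlap was 0 between the mutant groups after TPM (4.29% of all genes), and after division by hormone RNA it was 2 in euglycemic against WT (1.1%) and 0 between the mutant groups (3.29%). The genes most like each member were shared in 3 cases with group means taken off. The difference of *Ucn3* between euglycemic and WT libraries turned to 0.20 with library weights, 0.034 without WT replicate 1 and 0.019 after division by hormone RNA, and that of *Fkbp1b* between the mutant groups to 0.063 without the acinar-rich libraries. Leaving out each library moved that of *Ucn3* over -0.46 to 0.034. The cause of these changes was not tested.

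Of the genes on the other function lists, 9, 6 and 0 met the criteria, which counts *Mslnl* against WT and *Aldh1a3* in diabetic libraries although both passed the minimum only through libraries where they are high. The counts were 3, 3 and 0 with no filter, 16, 32 and 11 with library weights, 2, 1 and 0 after division by hormone RNA, and 0, 0 and 0 without the acinar-rich libraries, and 2 in euglycemic libraries with only the 2 groups. Leaving out each library gave 3 to 10, 3 to 12 and 0 to 2.

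The replicate numbers did not pair the libraries: deviations from the group means had a mean correlation of -0.132 over 10 pairs with the same number and 0.0433 over 30 pairs with different numbers, and 0 libraries correlated best with their own number. With the replicate block the counts of genes were 45, 20 and 0, and 2 list genes were called in euglycemic libraries. Against WT the block took *Maob* and *Ppp1r1a* out of the diabetic calls and added *Msln*. From limma with the block, *Gipr* (adjusted p = 0.119), *Sytl4* (0.138) and *Cd81* (0.0662) were no longer called in diabetic libraries, nor *Slc2a2* (0.0531), *Slc30a8* (0.102), *Gipr* (0.139) and *Fkbp11* (0.102) in euglycemic ones.

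TPM moved the median of all genes between the mutant groups to 0.12, and division by hormone RNA moved it to 0.15 and 0.20 against WT, so differences under these scalings are relative to those shifts. Depth limits *Mslnl* and *Crhr2*, which had few fragments, more than the members.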
